A study of Mus with 2 samples.

Results

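The 10 genes described here encode lineage-specifying transcription factors of blood: Gata1, Gata2, Zfpm1, Klf1, Nfe2 and Fli1 for the erythroid and megakaryocyte lineages, Spi1 and Cebpa for the myeloid lineage, and Ikzf1 and Sox4 for the lymphoid lineage. They were picked by symbol from the 27998 genes counted, and all 10 were found on 1 row each. The factors were followed in hematopoietic stem cells (HSCs) sorted from tibias and fibulas of mice aged 8 to 12 weeks as LSK FLT3- CD150+ CD48- cells, LSK meaning lineage-negative, Sca-1+ and c-Kit+. The mice were Mx1-Cre; ID2+/+ (named Id2+/+ here) or Mx1-Cre; ID2Δ/Δ (named Id2-deleted), and both carried the Cre. Mx1-Cre is a recombinase whose promoter responds to interferon in blood cells and in other cells, and the mice received pIpC, an interferon inducer, 2 weeks before the sort. Per the labels 1000 cells were sorted from 5 pooled mice for each genotype and captured on the 10x Genomics Chromium as 1 library. A clause in the labels of the Id2-deleted library names Id2+/+ bones as its source, while its title and genotype field give the deletion, which set its group here. With 1 library per genotype, differences between genotypes and between libraries cannot be told apart, no test between genotypes was possible, and every interval below is a 95% interval for counting error only.

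These factors bind DNA, or in the case of Zfpm1 bind a factor that does, and switch on the genes of a blood lineage. Several of them are taught as pairs of opponents, GATA1 against PU.1 (the product of Spi1) for the erythroid or myeloid fate and KLF1 against FLI1 for the erythroid or megakaryocyte fate. Single stem cells are known to hold low levels of RNA for factors of several lineages at once, which is called lineage priming. The questions asked of the counts were how high each factor stood in the retained stem cells, which factors were found together in a cell, and whether either differed between the Id2+/+ and the Id2-deleted library. Id2 encodes an inhibitor of DNA binding that pairs with other helix-loop-helix proteins.

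Called cells numbered 349 in the Id2+/+ and 632 in the Id2-deleted library, among 8612217 and 17140713 unique molecular identifiers (UMIs, 1 per captured RNA molecule). After cells with 10% or more mitochondrial UMIs were set aside, clusters of erythroid-like cells (44 and 169) and neutrophil-like cells (27 and 40) were separated, with the 10 factors left out of the clustering and of every marker list. The remaining 262 and 416 cells are called retained. Of 12 HSC markers, 11 had their highest level in the retained cells in both libraries, among them Hlf, Procr, Mecom and Slamf1. The same 12 markers entered the rule that set clusters aside, so this order was partly fixed in advance. The retained clusters led by Pf4, a platelet gene, had negative mean log2 folds of these markers, -0.555 and -0.756. The retained cluster led by Ung had -0.243. The median depth of a retained cell was 7081 and 9663 UMIs, and 1 called barcode occurred in both libraries. Both pools held cells of both sexes, in unequal mixtures: 84 Id2+/+ and 231 Id2-deleted retained cells had Xist and no Y-linked UMI, while 93 and 90 had Y-linked UMIs and no Xist. Haemoglobin genes in retained cells, set against empty droplets, gave an estimate of free RNA of 10.5% of the UMIs of a retained Id2+/+ cell and 5.41% of those of an Id2-deleted cell, so the libraries differed in depth and in free RNA before any factor was compared.

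The erythroid factors stood at low levels in the retained cells and high levels in the erythroid-like cells that shared the sort. Gata1 (ENSMUSG00000031162, chromosome X, 7959260 to 7976663 on GRCm38.p6), the central activator of erythroid and megakaryocyte genes, had 98 UMIs in the retained Id2+/+ cells and 244 in the retained Id2-deleted cells. These gave 45.9 CPM (UMIs of a gene in parts per 10000 of the total, times 100; 37.3 to 56.0) and 52.1 CPM (45.7 to 59.0). In the erythroid-like cells Gata1 stood at 177 CPM (156 to 201) and 211 CPM (200 to 222), and in the neutrophil-like cells at 15.2 and 20.7 CPM, with upper bounds of 31.2 and 34.1. The order of the 3 cell types was the same in both libraries and their intervals did not overlap. Zfpm1 (ENSMUSG00000049577, chromosome 8, 122281856 to 122337862) encodes FOG-1, the cofactor that GATA1 needs for much of its work, and followed the same order. Retained cells held 51.1 CPM (42.0 to 61.6) and 48.9 CPM (42.8 to 55.6) of it. The erythroid-like cells held 95 and 79.4 CPM of Zfpm1, and the neutrophil-like cells had 1 and 4 UMIs in all.

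Klf1 (ENSMUSG00000054191, chromosome 8, 84901982 to 84905291), the activator of adult beta-globin and of many other red cell genes, did not differ between retained and neutrophil-like cells beyond counting error. There it had 96 UMIs in the Id2+/+ and 169 in the Id2-deleted library, a level of 45.0 CPM (36.5 to 55.0) and of 36.1 CPM (30.8 to 41.9). The neutrophil-like cells, which should lack it, had 39.0 CPM (23.1 to 61.6) and 34.4 CPM (22.3 to 50.8), and the empty droplets had 419 and 480 CPM. At the estimated amount of free RNA, 97.4% of the Klf1 level in retained Id2+/+ cells and 71.9% of that in retained Id2-deleted cells would come from that source. In the erythroid-like cells Klf1 stood at 571 CPM (532 to 612) and 643 CPM (624 to 663), which is 12.7-fold (10.3 to 15.8) and 17.8-fold (15.3 to 20.9) the retained level. The number of Klf1 UMIs per Gata1 UMI was 2.2 (2.02 to 2.40) and 2.71 (2.48 to 2.96) in the empty droplets and 3.22 and 3.05 in the erythroid-like cells, but 0.980 (0.732 to 1.31) and 0.693 (0.566 to 0.846) in the retained cells. The retained cells thus had fewer Klf1 UMIs per Gata1 UMI than the empty droplets in both libraries, and the source of their Gata1 UMIs was not tested. The estimate puts 43.4% and 18.4% of the Gata1 level of the retained cells in free RNA.

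Gata2, Nfe2 and Fli1 had their highest levels in the retained cells. Gata2 (ENSMUSG00000015053, chromosome 6, 88193891 to 88207032) is the GATA factor of stem and early progenitor cells, which GATA1 replaces as red cells mature. It stood at 226 CPM (207 to 248) and 177 CPM (165 to 190) in the retained cells, at 19.3 and 7.63 CPM in the erythroid-like cells and at 13.0 and 1.38 CPM in the neutrophil-like cells. Gata1 and Gata2 thus took opposite orders between retained and erythroid-like cells in both libraries. Nfe2 (ENSMUSG00000058794, chromosome 15, 103248212 to 103258403) encodes a subunit of the factor needed for platelet release and active in red cells. Its level was 181 CPM (163 to 199) and 159 CPM (148 to 171) in the retained cells, 42.9 and 47.0 CPM in the erythroid-like cells, and 41.1 and 42.7 CPM in the neutrophil-like cells. The last 2 cell types did not differ in Nfe2 beyond their intervals. Fli1 (ENSMUSG00000016087, chromosome 9, 32422204 to 32543432) encodes an ETS factor of stem cells and megakaryocytes. It stood at 143 CPM (128 to 160) and 124 CPM (115 to 135) in the retained cells, 71.5 and 46.8 CPM in the neutrophil-like cells, and 6.43 and 3.89 CPM in the erythroid-like cells. In the erythroid-like cells Fli1 was therefore 0.0448-fold (0.0203 to 0.0862) and 0.0313-fold (0.0201 to 0.0467) its retained level.

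The myeloid factors had their highest levels in the neutrophil-like cells. Spi1 (ENSMUSG00000002111, chromosome 2, 91082374 to 91115759) encodes PU.1, the ETS factor of granulocytes, macrophages and B cells. It stood at 112 CPM (98.7 to 128) and 95.2 CPM (86.6 to 104) in the retained cells, 344 CPM (293 to 402) and 326 CPM (286 to 371) in the neutrophil-like cells, and 5.00 and 2.96 CPM in the erythroid-like cells. Cebpa (ENSMUSG00000034957, chromosome 7, 35119293 to 35121928), the factor that opens the granulocyte programme, was almost not detected in the retained cells. It had 9 UMIs in 8 of 262 Id2+/+ cells and 20 UMIs in 16 of 416 Id2-deleted cells, or 4.22 CPM (1.93 to 8.01) and 4.27 CPM (2.61 to 6.59). The neutrophil-like cells held 106 CPM (78.5 to 140) and 57.8 CPM (41.7 to 78.2), a ratio between the libraries of 0.545 (0.352 to 0.840). No Cebpa UMI was found in 44 erythroid-like Id2+/+ cells, which allows a share of up to 6.82% of cells with a UMI, and 3 were found in 169 Id2-deleted ones. Spi1 and Cebpa thus differed in the stem cells, since Spi1 had a UMI in 136 of 262 and 265 of 416 retained cells at full depth.

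Of the lymphoid factors, Sox4 had the clearest preference for the retained cells and Ikzf1 had none. Sox4 (ENSMUSG00000076431, chromosome 13, 28948919 to 28953699) encodes an HMG-box factor needed by early B cells and found in stem cells. Its level was 319 CPM (296 to 344) and 240 CPM (226 to 254) in the retained cells, 8.57 and 7.16 CPM in the erythroid-like cells and 15.2 and 6.88 CPM in the neutrophil-like cells. Ikzf1 (ENSMUSG00000018654, chromosome 11, 11684962 to 11772930) encodes Ikaros, a zinc-finger protein needed for lymphoid development. It stood at 68.4 CPM (57.8 to 80.5) and 41.8 CPM (36.2 to 48.1) in the retained cells, 104 CPM (87.4 to 122) and 87.5 CPM (80.4 to 95) in the erythroid-like cells, and 36.8 CPM (21.4 to 58.9) and 37.2 CPM (24.5 to 54.1) in the neutrophil-like cells. The erythroid-like cells were the highest in Ikzf1 in both libraries. The ratio of neutrophil-like to retained cells was 0.538 (0.305 to 0.891) in the Id2+/+ and 0.889 (0.571 to 1.33) in the Id2-deleted library, so these cell types did not differ beyond counting error in the latter. RefSeq places non-coding genes over parts of Gata1, Gata2, Zfpm1, Fli1, Ikzf1 and Sox4, and how reads in the overlaps were assigned is not given in the sources used here.

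**Figure D1:**
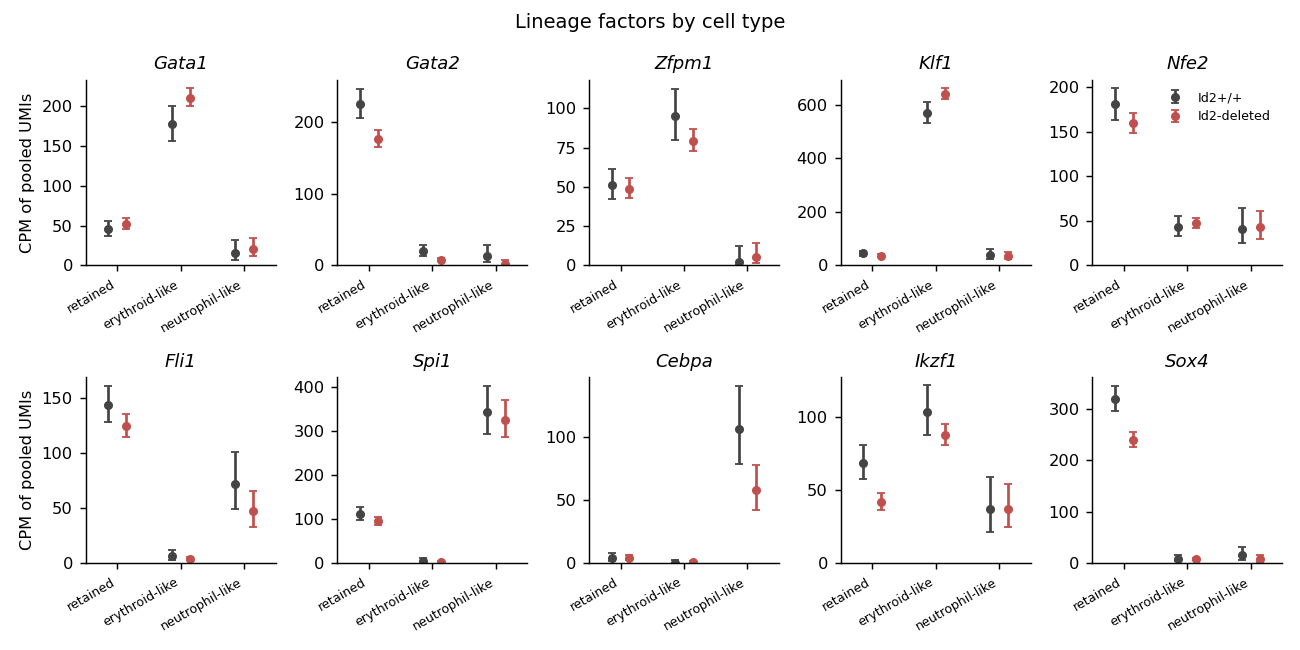
CPM of pooled UMIs (y axis, linear, from 0) of the 10 factors in retained, erythroid-like and neutrophil-like cells of the Id2+/+ (grey) and Id2-deleted (red) library, with exact 95% Poisson intervals. Gata1, Zfpm1, Klf1 and Ikzf1 were highest in erythroid-like cells, Spi1 and Cebpa in neutrophil-like cells, and Gata2, Nfe2, Fli1 and Sox4 in retained cells, in both libraries.

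Between the libraries, 1 of the 10 factors passed the fold of 1.5 used here to name a difference. Ikzf1 was lower in the retained Id2-deleted cells, with a ratio of 0.611 (0.491 to 0.763). Among the 10458 genes that reached 20 UMIs when the libraries were added up, 13.3% were lower and 3.76% were higher by that fold, so 1 lower factor of 10 lies near the background. For the 10 factors the median log2 ratio was -0.22, and for all 10458 genes it was -0.08. The intervals of Sox4, at 0.751 (0.682 to 0.827), and of Gata2, at 0.782 (0.699 to 0.877), lay below 1 without reaching the fold. Sox4 took opposite directions in the cells that could be assigned to a sex, a difference that was not tested. Its ratio was 1.23 (1.04 to 1.47) among cells with Xist and no Y-linked UMI and 0.695 (0.580 to 0.833) among cells with Y-linked UMIs and no Xist. Cells with both or neither kind of UMI are in neither subset. In the same subsets Gata1 stood at 0.753 (0.540 to 1.06) and 1.32 (0.832 to 2.13) and Zfpm1 at 0.833 (0.589 to 1.2) and 1.22 (0.767 to 1.99), with intervals that held 1. Fli1 at 0.868 (0.754 to 0.9995), Spi1 at 0.846 (0.722 to 0.994) and Nfe2 at 0.882 (0.779 to 1.0) lay at the edge of counting error. Gata1 at 1.13 (0.893 to 1.45), Zfpm1 at 0.957 (0.758 to 1.21), Klf1 at 0.802 (0.620 to 1.04) and Cebpa at 1.01 (0.440 to 2.52) had intervals that held 1. With the estimated free RNA subtracted, the Gata1 ratio was 1.55, past the fold, and that of Klf1 turned to 8.28, from 2.47 and 47.5 UMIs left. An interval that holds 1 does not show that a factor stood level, and that of Cebpa spans more than the fold in both directions.

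**Figure D2:**
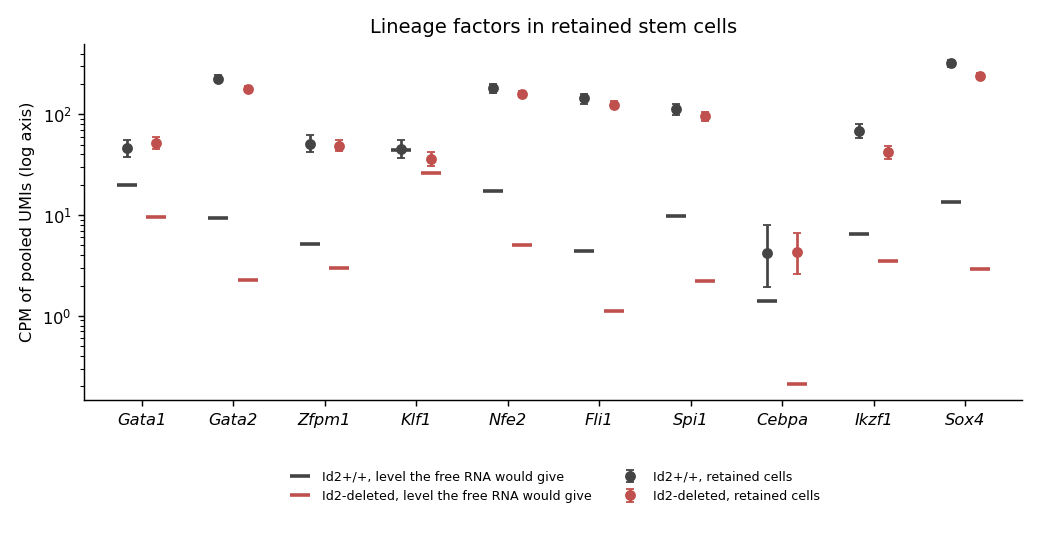
CPM of pooled UMIs in the retained cells (y axis, log scale) for each factor in the Id2+/+ (grey) and Id2-deleted (red) library, as points with exact 95% Poisson intervals; horizontal dashes give the level that the estimated free RNA alone would give. Klf1 stands at 45.0 and 36.1 CPM against dashes at 43.8 and 25.9 CPM, and Ikzf1 at 68.4 against 41.8 CPM.

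Ikzf1 was examined further because it was the only factor past the fold. In cells thinned at random to 5800 UMIs, so that depth was equal, it had a UMI in 67 of 196 retained Id2+/+ cells (34.2%, 27.6 to 41.3) and 88 of 416 retained Id2-deleted cells (21.2%, 17.3 to 25.4). At the same depth the neutrophil-like cells gave 14.8% and 15%, and the erythroid-like cells 35.7% (21.6 to 52.0) and 33.1% (26.1 to 40.8), which overlaps the retained share in the Id2+/+ library and lies above it in the Id2-deleted library. Over 20 other random draws the retained shares ran from 31.6% to 37.8% and from 18.8% to 24.8%, which did not overlap. These draws thin the same cells, so they show the spread of the thinning alone, and thinning left out 66 Id2+/+ cells. At full depth, which was greater in the Id2-deleted library, the shares were 106 of 262 (40.5%, 34.5 to 46.7) and 150 of 416 (36.1%, 31.4 to 40.9), which overlap. In each of the 5 clusters of retained cells with at least 4 cells of both libraries the Id2-deleted level was the lower one, with ratios of 0.336 to 0.963. In 4 of these clusters the interval held 1. The largest cluster of each library, which the comparison within clusters leaves out, held Ikzf1 at 76.0 CPM (60.3 to 94.6) in 151 Id2+/+ cells and 59.5 CPM (47.0 to 74.2) in 153 Id2-deleted cells, with intervals that overlapped. The ratio was 0.624 (0.443 to 0.889) among cells with Xist and no Y-linked UMI and 0.653 (0.434 to 0.982) among cells with Y-linked UMIs and no Xist. In erythroid-like cells the ratio of Ikzf1 was 0.845 (0.703 to 1.02), and in neutrophil-like cells 1.01 (0.531 to 1.97). When these cells were pooled with the retained ones the ratio was 0.860, short of the fold.

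Genes that these factors are known to switch on, and other genes of the same lineages, were counted in lists, against the same background of 3.76% higher and 13.3% lower over all genes. Of 25 erythroid genes tested, 0 were higher and 6 were lower, with a median log2 ratio of -0.36. One of the 6 was Car1, a red cell carbonic anhydrase, for which 1 Id2+/+ cell held 83 of 299 UMIs and the next held 5. Without that cell its ratio was 0.774 (0.652 to 0.919), short of the fold, and 5 erythroid genes were lower, while 7 were lower without a cell rich in B-lineage genes that is described with the lymphoid list. The lowest were Sptb, erythrocyte beta-spectrin, at 8.44 and 4.27 CPM (ratio 0.506, 0.254 to 1.01) and Tspan33, a tetraspanin of erythroid progenitors, at 26.7 and 14.7 CPM (ratio 0.551, 0.382 to 0.797). The highest were Epor, the erythropoietin receptor, at 1.09 (0.773 to 1.56) and Tfrc, the transferrin receptor, at 1.09 (0.729 to 1.65). All 4 stood higher in the empty droplets than in the retained cells, at 43.2 to 196 CPM. Of 20 megakaryocyte and platelet genes, 6 were higher and 0 were lower, with a median of 0.26. Clusters led by Pf4 held 43 and 4 of the 262 retained Id2+/+ cells and 44 and 28 of the 416 retained Id2-deleted cells, and their part in these counts was not tested. The higher genes were F2rl2, Gp1ba, Gp1bb, Pf4, Ppbp and Selp. Ppbp, a platelet chemokine, had 6 UMIs in the Id2+/+ and 48 in the Id2-deleted library (ratio 3.64, 1.56 to 10.4), and Gp1ba, a subunit of the platelet receptor for von Willebrand factor, had 4 and 20 (2.28, 0.763 to 9.16). F2r, a thrombin receptor, was at the other end with 100.3 and 73.6 CPM, a ratio of 0.734 (0.617 to 0.875).

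Of 18 myeloid genes 0 were higher and 7 were lower, with a median log2 ratio of -0.38. Elane and Mpo, the granule elastase and myeloperoxidase, stood at 0.310 (0.268 to 0.359) and 0.312 (0.271 to 0.360), from 219 to 68.1 CPM and from 226 to 70.6 CPM. Their levels in the empty droplets were 1791 and 907 CPM for Elane and 2816 and 763 CPM for Mpo, and the part of free RNA in their ratios was not tested. Lyz2, lysozyme, at 1.22 (1.11 to 1.34) and Tyrobp, an adaptor of myeloid receptors, at 1.15 (0.757 to 1.79) were the highest. Of 13 lymphoid genes 0 were higher and 8 were lower, with a median of -0.71, which stayed at -0.71 with Dntt set at its bound. Dntt, the terminal transferase of early lymphocytes, had 59 UMIs in 5 Id2+/+ cells and none in the Id2-deleted library, at least 43.2-fold lower when 3 counts are set as the floor of that whole library, and at least 23.5-fold lower without the cell rich in B-lineage genes described next. Of these 59 UMIs 56 came from 2 cells. One retained Id2+/+ cell had 88 UMIs of 8 B-lineage genes, while the next had 4, and without it 7 of 12 lymphoid genes were lower, with a median of -0.70. Ebf1, a B-lineage factor, went from 38 to 10 UMIs (0.120, 0.0532 to 0.245) with that cell and had a ratio of 0.189 (0.0807 to 0.410) without it. Cd52, a lymphocyte surface antigen, was among the highest at 1.05 (0.688 to 1.63). Of 33 other blood transcription factors 1 was higher, Zbtb16 with 4 and 17 UMIs (1.94, 0.631 to 7.91, an interval that holds 1), and 8 were lower, or 9 without the cell rich in B-lineage genes, with a median of -0.30. Gata3, a factor of T cells and stem cells, had 123 and 112 UMIs, or 57.7 and 23.9 CPM (0.415, 0.318 to 0.540), and Elf1, an ETS factor, stood at 1.06 (0.906 to 1.24).

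Most single stem cells held RNA of several of the 10 factors. At 5800 UMIs per cell, 196 retained Id2+/+ cells and all 416 retained Id2-deleted cells were deep enough, and 66 Id2+/+ cells were left out. The median number of factors detected in a cell was 4 in both libraries, although in the Id2-deleted library it was 3 in the lowest of 20 other draws, with a mean of 3.94 ± 1.38 (SD over cells) in the Id2+/+ and 3.59 ± 1.43 in the Id2-deleted library. No factor was found in 2 of 196 and 3 of 416 cells, and the most found in a cell was 8 in either library. One factor alone was found in 1.02% (0.124 to 3.64) of the Id2+/+ cells and 6.25% (4.12 to 9.02) of the Id2-deleted cells. The median was 3 and 3 in erythroid-like cells and 3 and 2 in neutrophil-like cells. Detection depends on depth, and without thinning the median was 5 in both libraries.

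**Figure D3:**
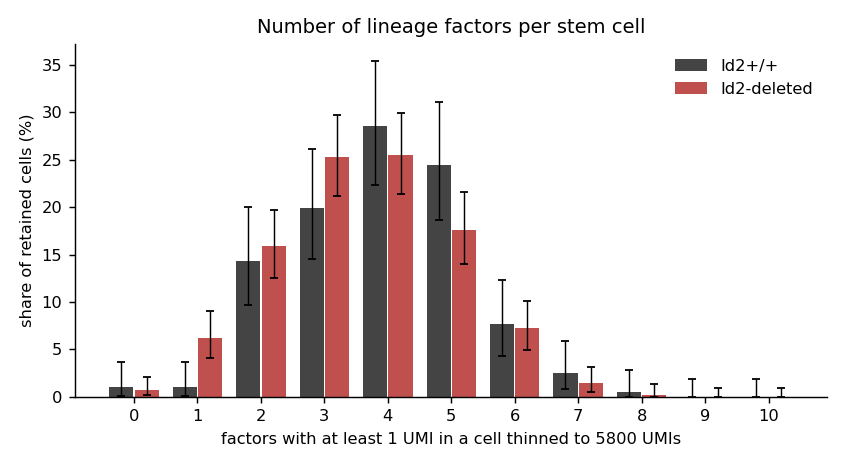
Share of retained cells (y axis, percent) by the number of factors with at least 1 UMI (x axis), after thinning to 5800 UMIs per cell, for 196 Id2+/+ (grey) and 416 Id2-deleted (red) cells with exact 95% binomial intervals. At 4 factors stand 28.6% and 25.5% of the cells, and at 3 factors 19.9% and 25.2%, and both distributions fall away on either side.

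An erythroid or megakaryocyte factor and a myeloid or lymphoid factor were found in the same cell in 161 of 196 Id2+/+ cells (82.1%, 76.1 to 87.2) and 332 of 416 Id2-deleted cells (79.8%, 75.6 to 83.6). Over 20 other draws the shares ran from 78.1% to 84.2% and from 76.9% to 81.7%, and the libraries overlapped. With Klf1 not counted the shares were 82.1% and 78.4%. Erythroid or megakaryocyte factors alone were found in 12.8% (8.43 to 18.3) and 15.6% (12.3 to 19.5), and myeloid or lymphoid factors alone in 4.08% (1.78 to 7.88) and 3.85% (2.21 to 6.17). In erythroid-like cells the share with both kinds was 38.1% (23.6 to 54.4) and 34.9% (27.8 to 42.6), and in neutrophil-like cells 77.8% (57.7 to 91.4) and 52.5% (36.1 to 68.5). The share in retained cells was the highest of the 3 cell types in both libraries, although in the Id2+/+ library it overlapped that of the neutrophil-like cells. A rule of at least 2 UMIs per factor left 34.7% and 29.6% of the retained cells, so most cells met the first rule through single UMIs.

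The single shares behind these values were set, where one was at hand, beside a cell type that should lack the factor. Gata1 had a UMI in 22.4% (16.8 to 28.9) and 21.6% (17.8 to 25.9) of the thinned retained cells, against 11.1% (2.35 to 29.2) and 5.00% (0.611 to 16.9) of the neutrophil-like cells. Klf1 had a UMI in 22.4% and 19.7% of the retained cells against 22.2% and 15% of the neutrophil-like cells, which overlap within counting error. Over all retained cells its Id2+/+ level of 45.0 CPM (36.5 to 55.0) had an interval that held the free-RNA level of 43.8 CPM. The Id2-deleted level of 36.1 CPM (30.8 to 41.9) lay above the free-RNA level of 25.9 CPM. The source of the Klf1 UMIs was not tested. Among the retained cells Klf1 stood at 81.9 CPM (58.8 to 111) in the 43 Id2+/+ cells and at 46.7 CPM (32.4 to 65.3) in the 44 Id2-deleted cells of the cluster led by Pf4, Gp1bb and Plek. These intervals lie above the free-RNA levels of 43.8 and 25.9 CPM. Zfpm1, with 23.5% and 20.4%, was found in 0 of 27 and 0 of 40 neutrophil-like cells, which allows up to 11.1% and 7.5%. The erythroid-like cells served for Gata2, Sox4, Spi1, Fli1 and Cebpa. Gata2 was found in 63.3% and 58.4% of the retained cells against 19.0% and 2.96%, Sox4 in 62.2% and 66.1% against 2.38% and 3.55%, and Spi1 in 46.4% and 43.3% against 2.38% and 0.592%. Fli1, with 51.0% and 44.7%, was found in 0 of 42 and 0 of 169 erythroid-like cells, which allows up to 7.14% and 1.78%. Cebpa was found in 4 of 196 and 8 of 416 retained cells, or 2.04% and 1.92%, against 0 of 42 and 0 of 169 erythroid-like cells, which allows up to 7.14% and 1.78%. The Id2+/+ share lies below its limit and the Id2-deleted share just above. Nfe2, with 66.3% and 61.3%, and Ikzf1 are expressed by both other cell types, so their shares have no such background. Median depths before thinning were 33770 and 38755 UMIs in erythroid-like and 17626 and 17986 UMIs in neutrophil-like cells. The retained cells had 7081 and 9663 UMIs, and the part of this difference in the background shares was not tested.

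Gata1 and Spi1, whose proteins bind and restrain each other, were found together in 20 of 196 retained Id2+/+ cells (10.2%, 6.35 to 15.3) and 29 of 416 retained Id2-deleted cells (6.97%, 4.72 to 9.86). The products of their single shares were 10.4% and 9.36%. Over 20 other draws the joint share ran from 6.12% to 12.2% and from 6.01% to 10.1%, and its ratio to the product lay on both sides of 1 in both libraries. The median over these draws was 0.899 and 0.814. The draws thin the same cells, so their spread is not that between cells. In the Id2-deleted library Spi1 was found in 29 of 90 cells with Gata1 (32.2%, 22.8 to 42.9) and 151 of 326 without it (46.3%, 40.8 to 51.9). In the Id2+/+ library these shares were 45.5% and 46.7%. The intervals overlapped in both libraries. In erythroid-like cells the pair was found in 1 of 42 and 0 of 169 cells, and in neutrophil-like cells in 2 of 27 and 2 of 40. Klf1 and Fli1 were found together in 11.2% (7.17 to 16.5) and 9.13% (6.55 to 12.3) of the retained cells, against products of 11.4% and 8.81%. Spi1 and Cebpa met in 2 and 5 retained cells, and in 11 of 27 and 9 of 40 neutrophil-like cells.

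Over the 45 pairs of the 10 factors, 14 stood above the product of the single shares in both libraries, 9 below it in both and 22 on opposite sides. These counts rest on 1 draw, and 0 pairs lay on opposite sides in every draw. Among pairs whose product was at least 5%, the joint share ran from 0.733 to 1.62 times the product. Gata1 and Klf1 stood at 1.62 and 1.24 times the product, Gata1 and Zfpm1 at 1.55 and 1.09 times, and Gata1 and Gata2 at 1.11 and 1.12 times. Other pairs of erythroid and megakaryocyte factors lay below it in both libraries, namely Klf1 and Nfe2 at 0.925 and 0.995 times and Nfe2 and Fli1 at 0.950 and 0.956 times. The part of free RNA in the Klf1 UMIs of these pairs was not tested. The excess of the 3 pairs with Gata1 was not seen in each of the 20 other draws of the Id2+/+ library, where the lowest ratios were 0.998 with Klf1, 0.977 with Zfpm1 and 0.972 with Gata2. Gata1 with Sox4 and Fli1 with Sox4 stayed below the product in both libraries in the first and in all 20 other draws. Sox4 was found in 23 of 44 Id2+/+ cells with Gata1 (52.3%, 36.7 to 67.5) and 99 of 152 without it (65.1%, 57.0 to 72.7). In the Id2-deleted library it was found in 47 of 90 cells with Gata1 (52.2%, 41.4 to 62.9) and 228 of 326 without it (69.9%, 64.6 to 74.9). The intervals of the Id2+/+ shares overlapped and those of the Id2-deleted shares did not. No pair stood above the product in both libraries in every draw.

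**Figure D4:**
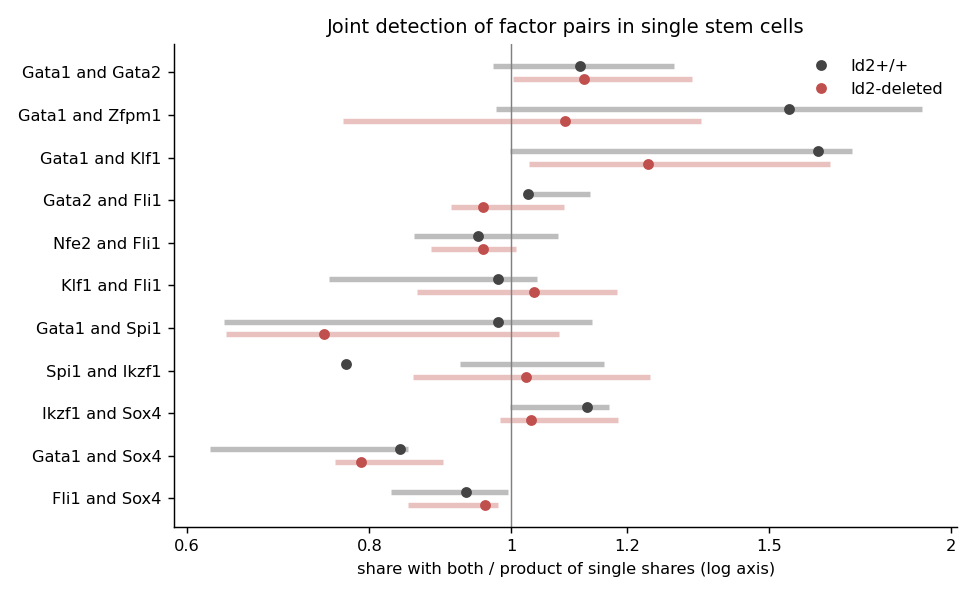
Share of retained cells with UMIs of both factors divided by the product of the single shares (x axis, log scale) for 11 pairs in the Id2+/+ (grey) and Id2-deleted (red) library. Points are the draw used in the text, bars the range over 20 other draws, and the line at 1 marks the product. The Id2+/+ point of Spi1 and Ikzf1, at 0.772, lies outside its own bar of 0.922 to 1.16. The bars of Gata1 with Sox4 and of Fli1 with Sox4 lie below 1 in both libraries.

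Sox4 differed between retained cells that did and did not hold platelet RNA. The retained clusters led by Pf4 had negative mean log2 folds of the HSC markers (-0.555 and -0.756), so these markers do not bear out a stem cell name for them. Pf4, which encodes platelet factor 4, had at least 3 UMIs in 28 of 196 thinned Id2+/+ cells and 71 of 416 thinned Id2-deleted cells. Within the Id2+/+ library Sox4 stood at 80.1 CPM in the cells with Pf4 and 354 CPM in those without, a ratio of 0.226 (0.119 to 0.392). Within the Id2-deleted library it stood at 80.1 and 319 CPM, a ratio of 0.251 (0.172 to 0.357). The ratio stayed between 0.134 and 0.389 in 20 other draws of both libraries. Spi1 was lower in the cells with Pf4, at 0.578 (0.300 to 1.02, an interval that holds 1) and 0.444 (0.269 to 0.695), and Fli1 was higher, at 2.58 (1.79 to 3.68) and 1.42 (1.05 to 1.88). Gata1 was at 1.5 (0.669 to 3.05) in the Id2+/+ library, where counting error does not separate it from 1, and at 2.68 (1.80 to 3.94) in the Id2-deleted library. Zfpm1 was at 1.40 (0.625 to 2.82) and 1.90 (1.17 to 3.01), Nfe2 at 0.667 (0.403 to 1.05) and 0.866 (0.653 to 1.13), Ikzf1 at 0.779 (0.359 to 1.51) and 0.732 (0.385 to 1.29) and Klf1 at 1.28 (0.575 to 2.56) and 1.22 (0.694 to 2.03). Gata2 was at 1.64 (1.2 to 2.22) in the Id2+/+ and 0.969 (0.743 to 1.25) in the Id2-deleted library, but 20 other draws gave 1.05 to 1.41 and 0.955 to 1.34, which overlap. Over the same draws Spi1 ran from 0.214 to 0.895 and from 0.448 to 0.755, Fli1 from 1.76 to 3.22 and from 1.36 to 1.92, and Gata1 from 1.30 to 3.53 and from 1.91 to 3.03. Their direction was thus the same in each draw of both libraries. With at least 10 Pf4 UMIs in place of 3, the ratios were 0.0592 and 0.209 for Sox4, 3.24 and 1.43 for Fli1, and 2.01 and 2.31 for Gata1.

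The retained cells were also divided by Hlf, a factor of long-term stem cells, and by Cd34 and Mki67. How far these splits repeat the split by Pf4 was not tested. Gata1 was lower in cells with a Hlf UMI in both libraries, with 25.8 against 58.5 CPM among 87 and 109 Id2+/+ cells (0.440, 0.215 to 0.847) and 33.4 against 61.1 CPM among 165 and 251 Id2-deleted cells (0.547, 0.353 to 0.828). Over 20 other draws the ratio ran from 0.255 to 0.652 and from 0.319 to 0.987, which nearly reaches 1. Sox4 was higher in cells with Hlf, at 1.37 (1.11 to 1.70) and 1.68 (1.44 to 1.96), although in the Id2+/+ library 20 other draws ran from 0.892 to 1.38. Fli1 stood at 0.723 (0.511 to 1.02) and 0.736 (0.567 to 0.951). Cells with a UMI of Cd34, a surface protein that marks stem cells with less long-term potential, were high in Sox4 and low in Gata1 and Fli1. The ratios with Cd34 were 1.64 (1.32 to 2.05) and 1.45 (1.24 to 1.69) for Sox4, 0.537 (0.280 to 0.992) and 0.598 (0.404 to 0.876) for Gata1, and 0.636 (0.451 to 0.891) and 0.698 (0.545 to 0.891) for Fli1, and their direction held in 20 other draws. Mki67, a gene of cycling cells, went with less Sox4 in the Id2-deleted library, at 0.612 (0.480 to 0.771) among 78 and 338 cells. In the Id2+/+ library the ratio was 0.727 (0.516 to 1.002, an interval that holds 1) among 31 and 165 cells. Fli1 was at 1.09 (0.686 to 1.67) and 1.68 (1.28 to 2.2) in cells with Mki67. For Cebpa 0 to 10 UMIs on each side of these splits gave no usable ratio.

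**Figure D5:**
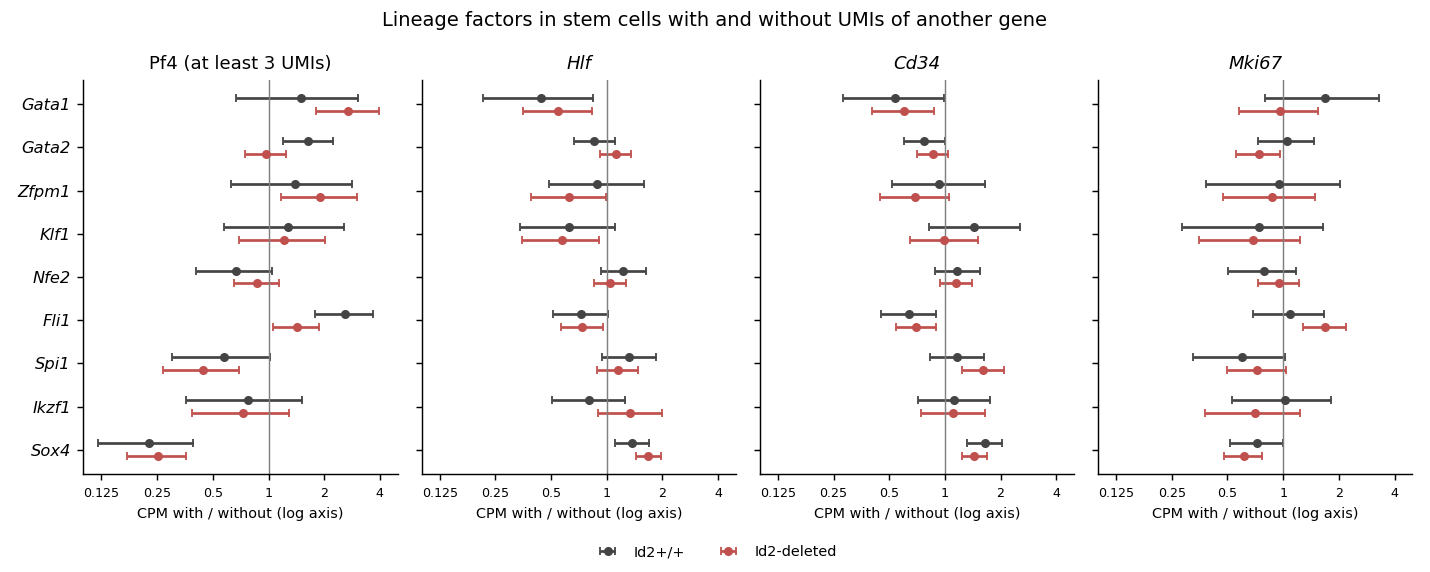
Ratio of CPM in thinned retained cells with against without UMIs of Pf4 (at least 3), Hlf, Cd34 or Mki67 (at least 1; x axis, log scale) for 9 factors in the Id2+/+ (grey) and Id2-deleted (red) library, with exact 95% intervals for counting error; Cebpa is left out. Sox4 lies at 0.226 and 0.251 for Pf4, and Gata1 at 0.440 and 0.547 for Hlf.

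The clusters of retained cells, drawn without the 10 factors, gave the same picture as a description. In the cluster led by Pf4, Gp1bb and Plek, with 43 Id2+/+ and 44 Id2-deleted cells, Sox4 stood at 112 CPM (84.5 to 145) and 64.6 CPM (47.5 to 85.9), Gata1 at 81.9 and 107 CPM and Fli1 at 220 and 184 CPM. The largest clusters came almost wholly from 1 library each, namely 151 Id2+/+ cells led by Jun, Fos and Gm19590, and 153 Id2-deleted cells with 3 Id2+/+ cells led by Cd74, Gm5111 and H2-Aa. In these Sox4 stood at 448 CPM (408 to 490) in the Id2+/+ and 451 CPM (415 to 489) in the Id2-deleted cells, and Gata1 at 19.96 CPM (12.4 to 30.5) and 19.8 CPM (13.0 to 29.1). The 2 largest clusters therefore held Sox4 and Gata1 at levels that did not differ beyond counting error, although their leading genes differed. In the cluster led by Ung and Dctpp1, with 14 and 93 cells, Sox4 stood at 214 CPM in both libraries. Over the 5 clusters with at least 4 cells of both libraries the Sox4 ratio between the libraries was below 1 in 3, with the interval below 1 in the cluster led by Pf4, Gp1bb and Plek at 0.578 (0.383 to 0.867) and in that led by Hist1h2bc at 0.664 (0.481 to 0.929). The intervals of the other clusters held 1, and the highest ratio, 2.65, rested on 1 Id2+/+ UMI.

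Few genes had a cell-to-cell pattern like that of a factor. Over the 5698 or 5699 genes with a UMI in at least 10% of the thinned retained cells of both libraries, the smaller of the 2 within-library correlations reached 0.2 for 11 genes with Sox4. These are Pearson correlations over 196 and 416 cells, whose points share their library. The closest to Sox4 were Malat1, a nuclear long non-coding RNA (r of 0.295 in the Id2+/+ and 0.329 in the Id2-deleted library), Ifitm1, an interferon-induced membrane protein (0.251 and 0.291), and Prtn3, a granule protease (0.243 and 0.270). For Gata1, Gata2, Zfpm1, Klf1, Nfe2, Spi1, Cebpa and Ikzf1 no gene reached 0.2 in both libraries, and the UMIs per cell were too few for such a measure.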

How the data were processed

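Sorted HSCs of Id2+/+ and Id2-deleted mice were profiled by 10x Genomics single-cell RNA sequencing, 1 library each. The authors deposited raw UMI counts, 1 matrix per library with 27998 genes and 737280 barcodes, with no cell calls. The submitters' processing notes name Cell Ranger 2.2.0 and mm10. Gene positions are from RefSeq for GRCm38.p6.

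A barcode was called a cell at 10% of the 99th percentile of the 1000 deepest barcodes. Cells were clustered with scanpy 1.11.5 (2000 variable genes, 20 components, 15 neighbours, Leiden at resolution 1), leaving out the 10 factors. A cluster was set aside with at least 4 markers of another cell type above a log2 fold of 1 in 25% of its cells. It also had to have a negative mean log2 fold of the HSC markers. Megakaryocyte markers did not count for this rule. The clusters led by Pf4, with 4 megakaryocyte markers past the same limits in each, were therefore kept among the retained cells. The cell types without the factors used as background were chosen after first values had been seen. Barcodes with 1 to 100 UMIs served as empty droplets. No doublets were removed in the reported values.

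CPM were computed from UMIs summed over cells, and their intervals are exact Poisson ones. A ratio divides the Id2-deleted by the Id2+/+ level and has an exact conditional interval, and a share has an exact Clopper-Pearson interval. A difference was named at 1.5-fold among genes with 20 UMIs over both libraries, and log2 ratios had 0.5 added to each count. Cells were thinned to 5800 UMIs in 1 random draw, which was redrawn once after results had been seen so that each alternative used the same thinned cells. Limits for a count of 0 use 3 counts. The intervals and the thinning were tested on simulated data.

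The members and the lists were chosen with earlier results of these data known. Named genes are the 10 factors, the 2 highest and 2 lowest ratios of each list, up to 3 genes most like each factor, and markers of clusters. F2rl2, Gp1bb, Pf4 and Selp were named in addition because they passed the fold, and Car1 because 1 cell holds much of it. Some genes that this rule names are not reported here. edgeR 4.0.16 (TMM) and DESeq2 1.42.0 (median of ratios) gave other scalings only. No replicates exist, so no p-value is given.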

Additional observations from a re-analysis of the deposited data

Results flagged for a closer look

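Sox4 took opposite directions in the retained cells that could be assigned to a sex, and the difference was not tested. Of the 262 and 416 retained cells, those with both or neither kind of UMI are in neither subset. Over all retained cells Sox4 stood at 319 and 240 CPM. Among cells with Xist and no Y-linked UMI, 84 in the Id2+/+ and 231 in the Id2-deleted library, Sox4 stood at 204 and 252 CPM, a ratio of 1.23 (1.04 to 1.47). Among cells with Y-linked UMIs and no Xist, 93 and 90, it stood at 352 and 245 CPM, a ratio of 0.695 (0.580 to 0.833). The Id2-deleted levels lay close to each other, while the Id2+/+ levels differed. Every cell of a genotype came from 1 pool of mice.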

How the results depend on the processing

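With 1 library per genotype no difference between the genotypes has a replicate check, and the ratio of Cebpa rests on 9 and 20 UMIs. No paired analysis was possible because the series holds a single library of either genotype. The count of factors past 1.5-fold, 1 in the reported values, was 7 with all called cells kept (Gata1 and Klf1 higher, and Gata2, Fli1, Spi1, Cebpa and Sox4 lower), where the share of erythroid-like cells differs between the libraries, and 3 with the empty-droplet profile subtracted (Gata1 at 1.55, Klf1 at 8.28, Ikzf1 at 0.586). In that last case 2.47 and 47.5 Klf1 UMIs were left. Of 18 alternatives 5 left every ratio of a factor as it was. Over the other 13, Ikzf1 was below 1 in 13 and beyond the fold in 12, and 116 of 130 ratios of single factors stayed within the reported interval, with Gata1 at 0.753 among cells with Xist alone. TMM scaling moved all log2 ratios by 0.11 and median-of-ratios scaling by 0.07. The counts of list genes without the cell rich in Car1 or the cell with B-lineage genes were added after seeing the data.

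The share of retained cells with both kinds of factor, 82.1% in the Id2+/+ and 79.8% in the Id2-deleted library, was 74.7% and 65.9% with all called cells kept, 88.9% and 94.0% without thinning, 56.1% and 51.7% at 3000 UMIs and 34.7% and 29.6% at 2 UMIs per factor. It was 73.0% and 81.0% among cells with Xist alone, 87.5% and 81.1% among those with Y-linked UMIs alone, 82.5% and 84.1% at 8000 UMIs and, in the Id2-deleted library in an alternative chosen after seeing the data, 84.4% without cells with Pf4. The share with Gata1 and Spi1, 10.2% and 6.97%, was 2.29% and 1.92% at 3000 UMIs, 20.6% and 11.2% at 8000 UMIs, and 0.510% and 0% at 2 UMIs per factor. It was 19.0% in the Id2-deleted library without thinning and 16.2% among Id2+/+ cells with Xist alone. Over 20 other draws its lowest Id2+/+ value was 6.12% and its highest Id2-deleted value 10.1%. The median number of factors per cell, 4 and 4, was 2 and 2 at 3000 UMIs and 2 and 1 at 2 UMIs per factor. The order of the libraries turned in the first share with Xist alone, at 8000 UMIs and without thinning, and in the share with Gata1 and Spi1 without thinning (14.9% in the Id2+/+ library). With Klf1 not counted, an alternative also chosen after seeing the data, the median was 4 and 3, as it was among cells with Xist alone, with Y-linked UMIs alone and with all called cells kept.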

Other observations

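In the erythroid-like cells, which were sorted with the stem cells, Gata2 was at 19.3 CPM in the Id2+/+ library (27 UMIs) and 7.63 CPM in the Id2-deleted library (49 UMIs), a ratio of 0.396 (0.242 to 0.658). Gata1 and Klf1 stood at 1.19 (1.04 to 1.37) and 1.13 (1.04 to 1.22) in the same cells. The clusters that make up the erythroid-like cells differed between the libraries, with 1 cluster of 27 cells from the Id2+/+ library alone and 1 of 77 cells from the Id2-deleted library alone, and their part in these ratios was not tested.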
